A study of Mus musculus with 8 samples.

Results

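Rpph1, the RNA subunit of ribonuclease P, took up more than 0.5% of the counts in 3 of 5 wild-type mouse liver libraries and less than 0.5% in the other two. These 5 libraries, out of 8 in the series, were chosen by genotype and then split by their Rpph1 share, and were set against each other here, the 3 with a high Rpph1 share against the 2 with a low share, across every gene other than Rpph1. All came from livers of male C57/BL6 mice kept for 25 weeks on a diet rich in fat, fructose and cholesterol, which is used to bring about fatty liver. The remaining 3 libraries, on the same strain, sex and diet, came from animals that the genotype label names Midn hemizygotes and the titles Het. They come from a global knockout of Midn, the gene of midnolin. All 3 had a low Rpph1 share, and they served only as a check. The labels give no age, and they name no batch, litter or day that parts the wild-type animals. High and low share are therefore no labelled condition: the sets were made from 1 measured gene, and each test below describes how these 5 libraries part, not the effect of a treatment.

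Ribonuclease P cuts the leader from the front end of transfer RNA precursors, and its RNA subunit is the part that does the cutting. Rpph1 is transcribed by RNA polymerase III, ends without a poly(A) tail and folds tightly, and it is joined in the cell by a set of RPP proteins that it shares with ribonuclease MRP, whose RNA is Rmrp. Liver messenger RNA comes mostly from hepatocytes, with smaller parts from Kupffer cells (the resident macrophages), endothelial cells, stellate cells, bile duct cells and blood-borne immune cells.

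Rpph1 lies on the minus strand of chromosome 14, from 50807447 to 50807771 in mm10, as 1 exon of 325 bases, and its start faces that of Parp2, a DNA repair gene on the plus strand (50807916 to 50821301). The stretch between the starts, 144 bases by RefSeq with a GC content of 52.1%, is a promoter that the 2 genes share and is shown since Parp2 gives a measure of the same promoter's other side. The sequence is from RefSeq, build GRCm38.p6, chr14:50807666-50807965, plus strand, 300 bases, with the stretch between the starts in capitals.
Rpph1 and Parp2 promoter: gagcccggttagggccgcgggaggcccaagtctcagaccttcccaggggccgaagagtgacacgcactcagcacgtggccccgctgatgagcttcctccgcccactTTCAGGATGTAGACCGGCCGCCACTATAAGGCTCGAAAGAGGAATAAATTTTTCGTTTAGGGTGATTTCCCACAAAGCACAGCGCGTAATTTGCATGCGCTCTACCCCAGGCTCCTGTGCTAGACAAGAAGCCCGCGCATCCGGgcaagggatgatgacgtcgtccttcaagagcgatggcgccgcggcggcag
A script looked for ATTTGCAT, the octamer that binds Oct factors at genes for small noncoding RNAs, and for TATAA, on both strands. ATTTGCAT stands once, on the plus strand as printed, at bases 195 to 202, and is held by 1.74% of 32851 promoters of the same length. TATAA stands at bases 131 to 135 of the plus strand and is held by 24.9% of those promoters. The RNA itself is shown because it is the molecule that chose the libraries: these are the first 300 of its 319 bases in the GENCODE transcript set, 5′ to 3′, with the 102 bases that lie inside the promoter window in capitals.
Rpph1 RNA: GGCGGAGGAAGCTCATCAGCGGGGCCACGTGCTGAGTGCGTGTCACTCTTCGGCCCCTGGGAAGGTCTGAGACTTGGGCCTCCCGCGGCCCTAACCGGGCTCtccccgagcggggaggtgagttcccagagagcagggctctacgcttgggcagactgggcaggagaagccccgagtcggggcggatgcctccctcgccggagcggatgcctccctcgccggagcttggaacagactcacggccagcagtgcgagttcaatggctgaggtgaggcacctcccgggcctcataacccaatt
Its GC content is 67.1% over the whole RNA.

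The Rpph1 share was 0.331% and 0.304% of counts in low-share wild-type libraries 1 and 3, and 0.899%, 0.673% and 1.06% in high-share libraries 2, 4 and 5. In CPM, counts brought to the same library total by the TMM method, which corrects for library composition, Rpph1 stood at 2901 and 2376 in the low-share libraries and at 8689, 7057 and 11937 in the high-share libraries. The lowest high-share library held 2.03 times the share of the highest low-share library, and nothing lay between 0.331% and 0.673%. These values chose the sets and are given with no test. Midn hemizygote libraries 1 to 3 held 0.229%, 0.399% and 0.288%. In what follows, values by library are given in the order 1 and 3 for low share, then 2, 4 and 5 for high share.

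Parp2, on the other side of the shared promoter, was not called. It stood at 12.5 and 13.6 CPM in the low-share libraries and at 12.8, 10.2 and 12.2 CPM in the high-share libraries. The high-share values overlapped the low-share ones, with a log2 difference (high minus low) of −0.15 (SE 0.16; edgeR adjusted p = 0.51). Midn, the gene the study deleted (chromosome 10, 80148272 to 80158368, plus strand), differed among these wild-type animals: it stood at 68.5 and 71.0 CPM with low share and at 39.8, 41.7 and 29.3 CPM with high share. The sets did not overlap (log2 difference −0.92, SE 0.17; edgeR adjusted p = 0.00855), as held in this direction for 31.8% of all genes tested. The hemizygote libraries had 60.5, 39.1 and 51.8 CPM. Per exon length and per GC content, as described below, the Midn difference was −0.38 (limma adjusted p = 0.0905).

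Library totals ran from 18687680 to 21064473 counts in wild type, and between 16754 and 17607 genes had a count in each wild-type library. Totals and gene numbers were both higher in the low-share libraries, without overlap. The replicates are separate animals as far as the labels show, so each p-value rests on how far these samples vary among themselves, which may in part be technical. For a measure of 1 value per library, 3 against 2 allows 10 assignments and no two-sided exact permutation p under 0.2.

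**Figure D1:**
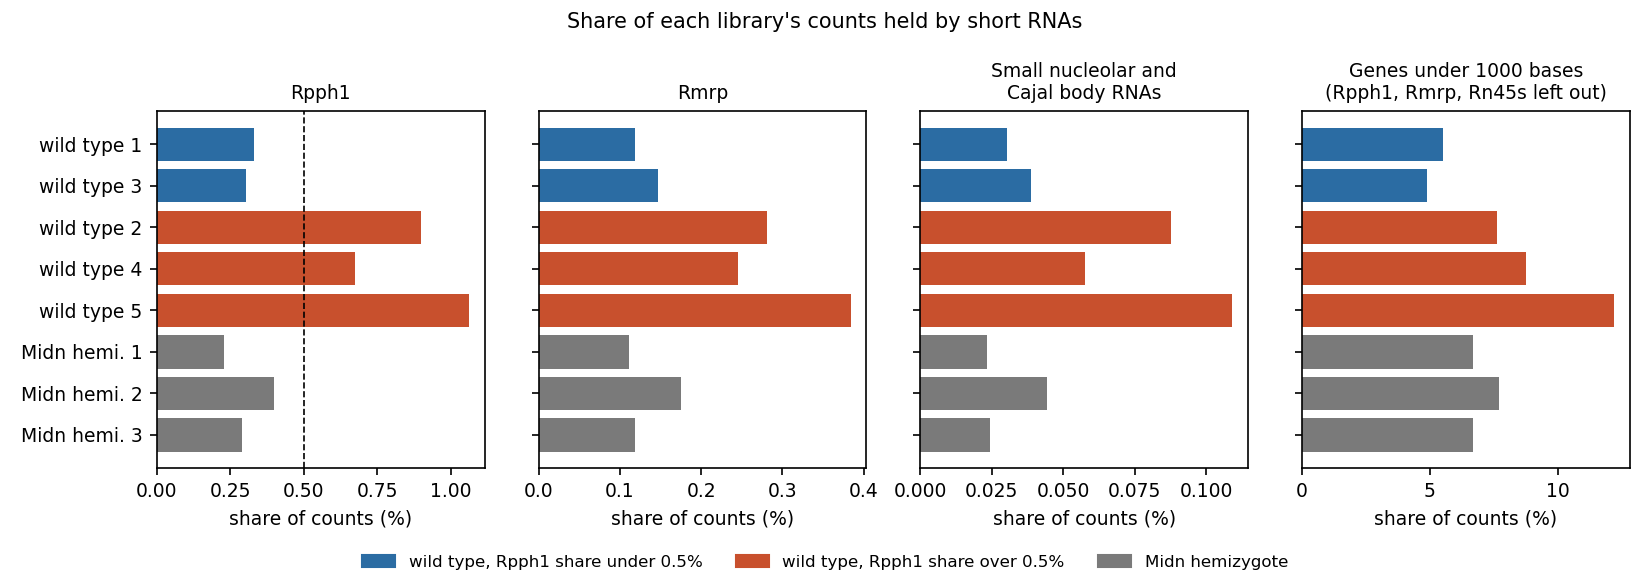
Share of counts (%, x axes) held by Rpph1, Rmrp, small nucleolar and Cajal body RNAs, and genes with under 1000 bases of exon in each of 8 libraries (y axis, 1 bar per library, no error bars), with the 0.5% threshold dashed. In all 4 panels the 3 high-share wild-type bars are longer than both low-share wild-type bars, while all 3 hemizygote bars exceed both low-share bars only for the genes under 1000 bases.

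Rmrp and several other structural RNAs were higher in the libraries with more Rpph1. Rmrp (chromosome 4, 43492785 to 43493059, minus strand, 275 bases), the RNA of ribonuclease MRP, stood at 1038 and 1150 CPM with low share and at 2722, 2570 and 4318 CPM with high share. The lowest high-share library was above both low-share libraries (log2 difference 1.55, SE 0.30; edgeR adjusted p = 0.00969). Rmrp was not called by limma on the deposited RPKM values, nor with trends against exon length, GC content or both removed as described below; with both removed it differed by 1.04 (limma adjusted p = 0.260). Of all 14579 genes tested, 18.8% were called higher and 14.4% lower, so 33.3% in either direction; of 7 small structural RNAs tested, 5 were called higher and 0 lower. Rnu12, the U12 RNA of the minor spliceosome, stood at 19.5 and 23.3 CPM against 86.5, 46.8 and 109.9 CPM (log2 difference 1.92, SE 0.35; edgeR adjusted p = 0.00963). Rnu3a, the U3 RNA that guides cuts in the ribosomal RNA precursor, stood at 19.4 and 29.0 against 84.6, 56.2 and 129.4 CPM. Rn45s, the ribosomal RNA precursor, held 2.55% and 3.14% of counts with low share and 2.65%, 3.37% and 3.86% with high share, so its shares overlapped. In CPM the sets did not overlap, at 22386 and 24566 against 25590, 35354 and 43367, and Rn45s was not called (log2 difference 0.57, SE 0.34; edgeR adjusted p = 0.233). Without library 1 or 3, 0 structural RNAs were called, Rmrp among those lost, and with both trends removed 2 were higher and 0 lower.

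Among small nucleolar and Cajal body RNAs, which guide the chemical modification of ribosomal and spliceosomal RNAs, 20 of 51 tested were called higher and 0 lower, with a median log2 difference of 1.15 against −0.05 over all genes tested. With the exon length and GC trends removed, 8 were higher and 8 lower, and the median was 0.12. Scarna10, a Cajal body guide RNA, stood at 42.1 and 37.1 CPM with low share and at 135.1, 94.3 and 163.4 CPM with high share (log2 difference 1.72, SE 0.24; edgeR adjusted p = 0.00655), and differed by 0.60 with the trends removed (limma adjusted p = 0.134). Scarna6 (2.12, SE 0.33), Snord17 (2.12, SE 0.34) and Snord22 (1.93, SE 0.32) were also higher. Together these RNAs held 0.0303% and 0.0386% of counts with low share and 0.0876%, 0.0578% and 0.109% with high share; the 3 hemizygote libraries held 0.0234% to 0.0444%. Many of these RNAs lie inside introns of host genes, and with the use of strand not given their reads and those of the host cannot be told apart. Without wild-type library 1, 3 of these RNAs were called, without library 3, 0, and without library 5, 11.

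Replication-dependent histone messages, which end in a stem-loop and not in a poly(A) tail, were called higher for 21 of 52 members and lower for 0, with a median log2 difference of 0.67. H2bc4, a core histone gene, stood at 50.2 and 46.8 CPM with low share and at 92.5, 120.7 and 130.9 CPM with high share (log2 difference 1.24, SE 0.18; edgeR adjusted p = 0.00655). H4c3 (1.46, SE 0.22), H2bc3 (1.24, SE 0.18) and the linker histone H1f2 (1.01, SE 0.20) were higher as well. With the exon length and GC trends removed, 6 histone genes were higher and 2 lower and the median was 0.09; H2bc4, H4c3 and H1f2 were then not called (limma adjusted p = 0.0841, 0.0702 and 0.0712). Without wild-type libraries 1, 3 and 5 the count of histone genes called higher was 8, 0 and 12. Cell cycle genes gave 6 of 30 higher (20%, against 18.8% of all genes tested) and 0 lower with a median of −0.21. Among them were Cdk1, the kinase that drives entry into mitosis (1.07, SE 0.17), and Pcna, the sliding clamp of DNA replication (0.96, SE 0.19); without libraries 1, 3 and 5, 2, 0 and 3 cell cycle genes were higher.

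Of 59 microRNA entries tested, mostly the spans of hairpin precursors, 3 were called higher and 1 lower. That is 5.08% and 1.69%, against 18.8% and 14.4% of all genes tested. With the exon length and GC trends removed, 3 were higher and 18 lower, and 50 of 57 lay below 0, with a median of −0.81. Their uncorrected median of 0.13 turned to −0.20 when libraries were scaled by their totals alone. Mir6516 was higher (log2 difference 1.89, SE 0.37) and Mir5125 lower (−1.41, SE 0.39). Mir5125 (chromosome 17, 23823291 to 23823369) lies within the span of Srrm2 (23803187 to 23824743), on the same strand. Srrm2 was lower as well (−1.07, SE 0.19), and reads of the 2 cannot be told apart here. Long noncoding RNAs that stay in the nucleus or host small nucleolar RNAs gave 9 of 27 higher and 2 lower, with a median of 0.20 that was −0.12 by library totals. The hosts led this list: Gas5 stood at 68.6 and 54.98 CPM against 156.0, 137.3 and 215.8 CPM (1.46, SE 0.23; edgeR adjusted p = 0.00655), and Snhg3 and Snhg6 (1.66, SE 0.28) were higher too. With the trends removed no member of this list was called, and Gas5 differed by 0.31 (limma adjusted p = 0.163), Snhg3 by 0.48 (0.0811) and Snhg6 by 0.041 (0.826). Leaving out library 1 left 4 of these long RNAs higher and no microRNA entry called, and leaving out library 5 left 6 and 1. Without library 2, 7 microRNA entries were higher. Malat1, a long nuclear RNA without an ordinary poly(A) tail, was not called, at 9400 and 9688 CPM with low share and 8165, 7900 and 6804 CPM with high share (−0.32, SE 0.25; edgeR adjusted p = 0.338).

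Genes listed with ribonucleases P and MRP went both ways. Not all are protein partners of Rpph1 and Rmrp, as the list also holds Rmrp itself, Trmt10c and Elac2. Of its 14 tested entries, 10 lay above 0 and 4 below. Among them 4 were called higher and 1 lower, with a median of 0.47. With both trends removed, 1 was higher and 0 lower, with a median of 0.10. Trmt10c, a subunit of the separate protein-only ribonuclease P of mitochondria, stood at 14.5 and 16.0 CPM with low share and at 38.7, 44.6 and 54.4 CPM with high share (1.59, SE 0.18; edgeR adjusted p = 0.00655). Rpp38, a protein of both ribonucleases, stood at 2.83 and 3.19 CPM against 5.45, 6.77 and 8.01 CPM (1.16, SE 0.25; edgeR adjusted p = 0.0133). Elac2, which trims the other end of transfer RNA precursors, was lower, at 21.1 and 19.9 CPM against 12.3, 15.5 and 12.3 CPM (−0.62, SE 0.16; edgeR adjusted p = 0.0227). In RNA polymerase III and its factors, 3 of 30 were higher (10%, against 18.8% of all genes tested) and 7 lower (23.3%, against 14.4%). The median was −0.06. Snapc4, a subunit of the complex that starts transcription at genes of the Rpph1 type, stood at 16.6 and 17.2 CPM against 7.20, 9.13 and 7.40 CPM (−1.10, SE 0.17; edgeR adjusted p = 0.00655), while the polymerase subunit Polr3k was higher (1.38, SE 0.22). Leaving out library 5 left 2 genes of the ribonuclease list higher and 0 lower. Without wild-type library 1, 1 polymerase III gene was higher and 1 lower, as without library 5, and without library 3 none was called.

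Across the transcriptome, 2745 genes were called higher and 2103 lower in the high-share libraries by edgeR's quasi-likelihood test with Benjamini-Hochberg adjustment. By separation alone, 31.0% of genes had every high-share value above every low-share value and 31.8% had every one below. The smallest adjusted p was 0.00655, shared by many genes, and 1159 genes were more than 2-fold higher and 781 more than 2-fold lower. The count rests on single libraries: it was 0 without wild-type library 3 (with 4031 genes at an unadjusted p under 0.05), 1754 without library 1 and 2326 without library 5. No list named here therefore kept a called gene without library 3, where 1 low-share library was left. The 2 sets did not overlap for 4847 of the 4848 called genes, which nearly fixes their sign when 1 library is left out. Scaling by library totals alone gave 1470 genes higher and 4305 lower and shifted the median difference of all genes from −0.05 to −0.38. List medians given by library totals carry that shift, and a change of their sign is to be read beside it. Upper-quartile scaling gave 2278 higher and 2831 lower, with a median of −0.16.

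Length and base composition of the transcript went with the direction. Of genes with up to 500 bases of exon, 43.5% were higher and 0.813% lower (median log2 difference 0.92), and of genes over 6000 bases 9.97% were higher and 27.8% lower (median −0.28). Of genes with a GC content under 40%, 61.2% were higher and 0.113% lower (median 0.77), and above 58% GC 7.40% were higher and 31.2% lower (median −0.46). Both held together: among 569 genes up to 1500 bases with at most 46% GC, 298 were higher and 5 lower, and among 1368 genes over 4000 bases with over 52% GC, 4 were higher and 739 lower. Across genes, which are not independent replicates and share these 5 libraries, Spearman's rho of the difference was −0.29 with exon length (n = 14579) and −0.47 with GC content (n = 14442). Rpph1, with 67.08% GC, and Rmrp, with 63.7% GC, are of the class up to 1500 bases with over 52% GC, in which 272 of 1043 tested genes were higher and 49 lower (median 0.16).

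**Figure D2:**
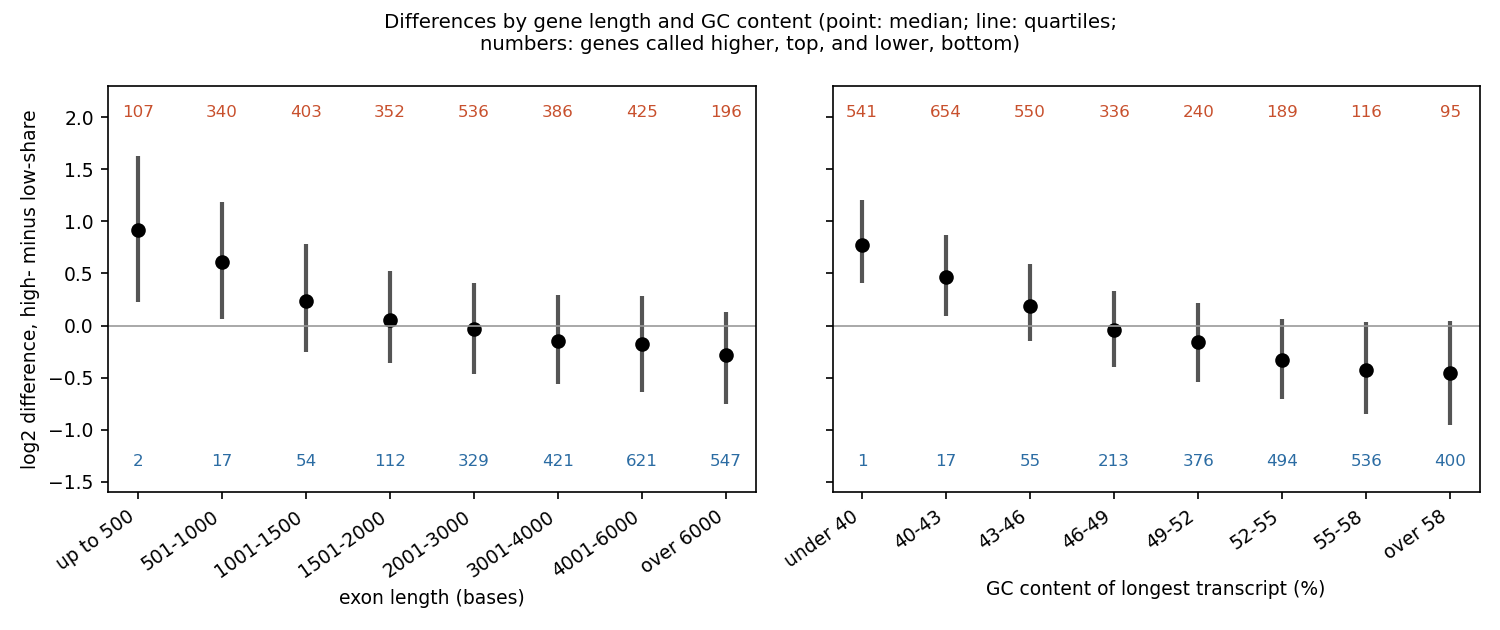
Median (point) and quartiles (line) of the log2 difference, high minus low share (y axis), in 8 bins of exon length in bases (left) and 8 bins of GC content in % (right); the printed numbers count genes called higher (top) and lower (bottom). Medians go from 0.92 in the shortest to −0.28 in the longest genes, and from 0.77 in the lowest to −0.46 in the highest GC bin.

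**Figure D3:**
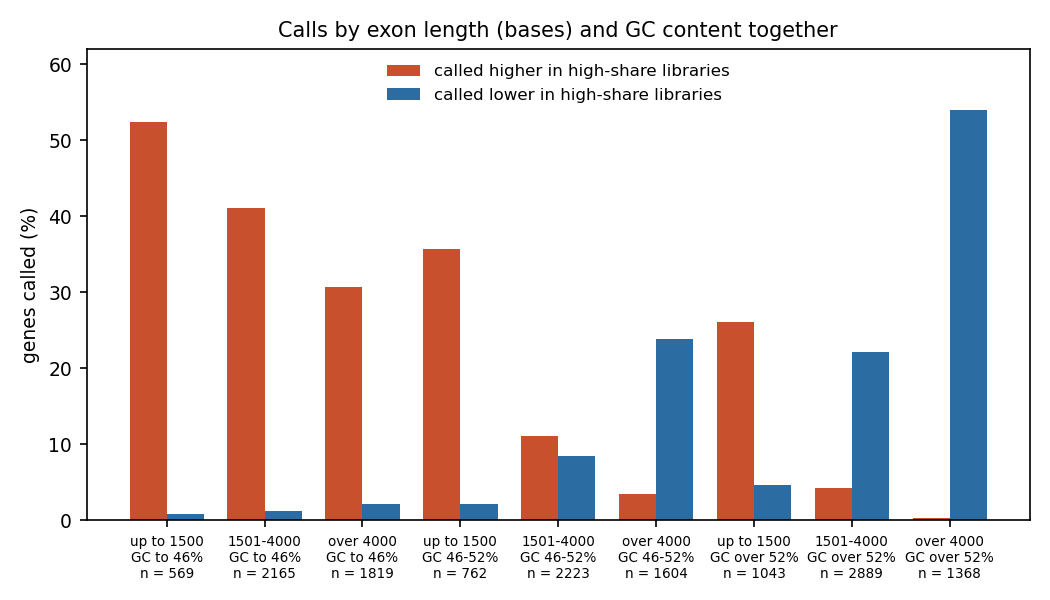
Share of genes (%, y axis) called higher (orange) or lower (blue) in the high-share libraries in 9 classes of exon length and GC content (x axis, n genes each). The class of short genes with low GC content has 52.4% higher and 0.879% lower, and the class of long genes with high GC content has 0.292% higher and 54.0% lower.

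The same shows in the libraries as wholes. Genes with under 1000 bases of exon, leaving out Rpph1, Rmrp and Rn45s, held 5.49% and 4.90% of counts with low share and 7.63%, 8.77% and 12.2% with high share. The mean exon length per count was 4122 and 4259 bases against 3942, 3781 and 3597 bases, and the mean GC content per count 48.6% and 48.7% against 47.2%, 47.6% and 46.9%. None of these measures overlapped between the sets, and each reached the smallest two-sided exact permutation p of 0.2 (adjusted p = 0.215 over 14 measures). Whether RNA integrity, size selection or handling of single libraries went with them was not tested, as the files hold no such value. After each library's trend against exon length and then against GC content was taken out of the log2 RPKM values, limma called 1427 genes higher and 772 lower. Of these, 1585 were also called before, 1579 of them in the same direction. This alternative was chosen after seeing the data, and values called corrected below are from it. Each trend was fitted over the tested genes themselves. A list of very short genes thus helps set the trend taken from it. Its shift cannot be compared with that of lists of longer genes.

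Genes for small, abundant housekeeping proteins were higher in the high-share libraries. In oxidative phosphorylation, whose nuclear genes encode subunits of the respiratory chain and the ATP synthase, 53 of 77 were higher and 0 lower, with a median of 1.00. Uqcrh, a hinge subunit of complex III, stood at 119.7 and 94.0 CPM with low share and at 349.0, 361.7 and 595.3 CPM with high share (2.03, SE 0.29; edgeR adjusted p = 0.00655). Ndufb5, of complex I, stood at 47.5 and 41.7 CPM against 88.8, 93.5 and 112.6 CPM, and Ndufb2 (1.90, SE 0.26) and Atp5mpl of the ATP synthase (1.58, SE 0.23) were higher too. The median exon length of the list was 764 bases, against 3020 over all genes tested, and after correction its median difference was 0.48, with 34 members higher and 4 lower. Corrected, Uqcrh differed by 1.05 (limma adjusted p = 0.0289) and Ndufb5 by 0.67 (limma adjusted p = 0.0238).

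Cytosolic ribosomal proteins gave 46 of 81 higher and 0 lower (median 0.61), and their share of counts was 1.35% and 1.39% with low share against 1.97%, 1.83% and 2.29% with high share. Rpl7, of the large subunit, stood at 324.5 and 276.4 CPM against 714.3, 685.3 and 795.4 CPM (1.28, SE 0.19; edgeR adjusted p = 0.00655), and its corrected difference was 0.54 (limma adjusted p = 0.0871). Corrected, 24 ribosomal protein genes were higher and 9 lower, with a median of 0.18; without library 1 the uncorrected count was 29. Proteasome subunits gave 22 of 38 higher and 1 lower (median 0.62), and 9 higher and 4 lower corrected (median 0.25). Psma4, of the proteasome core, stood at 100.4 and 80.6 CPM against 231.5, 236.0 and 336.5 CPM (1.57, SE 0.22), and Psmc6, an ATPase of the cap, differed by 1.64 (SE 0.24). Without library 1, 14 proteasome genes were higher. Many ribosomal protein genes have processed copies elsewhere in the genome that could take part of their reads, so single members are uncertain.

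The genes that parted the sets most sharply were not all short, but most followed the trend with GC content. The 10 higher genes with the smallest p, predicted genes and pseudogenes passed over, were Mad2l1, Plin5, Fam25c, Phospho2, Aasdhppt, Xkr9, Ptp4a1, Zfp942, Crbn and Nxt2, and their log2 differences ran from 1.25 to 1.74. Mad2l1, the spindle checkpoint protein, stood at 8.23 and 8.13 CPM with low share and at 24.1, 23.9 and 26.0 CPM with high share (1.59, SE 0.14; edgeR adjusted p = 0.00655). Libraries within each set lay closer to each other than to any of the other set. Crbn, the substrate receptor of a ubiquitin ligase, stood at 52.1 and 45.99 CPM against 133.6, 120.4 and 154.9 CPM (1.47, SE 0.16). Plin5, a lipid droplet coat protein that ties droplets to mitochondria, stood at 25.4 and 23.5 CPM against 57.7, 57.8 and 62.3 CPM (1.28, SE 0.13). Plin5 has a GC content of 58.91%, and its corrected difference was larger, 1.66 (limma adjusted p = 0.0231). Apart from Plin5 and Fam25c (56.62%), these higher genes lay below the median GC content of all genes tested, 49.5%, down to 35.5% in Nxt2. Corrected, Nxt2 was not called (0.52, limma adjusted p = 0.0636). Ptp4a1, the phosphatase of regenerating liver, had the smallest difference of the 10 (1.25, SE 0.13) and Phospho2, a small phosphatase, the largest (1.74, SE 0.18).

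Among the 10 lower genes with the smallest p were Ltbp4, Irs2, Cpxm1, Zfp395, Hivep3, Plekha6, Sorbs3, Nav1 and Myadm, and the log2 differences of these 9 ran from −1.96 to −1.32. Ltbp4, a matrix protein that stores latent TGF-beta, stood at 87.0 and 97.8 CPM with low share and at 27.4, 29.2 and 24.6 CPM with high share (−1.77, SE 0.13; edgeR adjusted p = 0.00655). Irs2, the insulin receptor substrate that fasting raises in liver, stood at 53.1 and 55.1 CPM against 19.5, 16.8 and 17.3 CPM (−1.599, SE 0.13). Hivep3, a zinc finger transcription factor, showed the largest difference of these 9 (−1.96, SE 0.20), at 10.05 and 10.4 CPM against 2.42, 2.92 and 2.53 CPM. Nav1, which guides microtubules in growing neurites, has 12767 bases of exon and stood at 61.7 and 62.4 CPM against 24.0, 16.9 and 16.1 CPM. Apart from Myadm (48.91%), these 9 genes lay above the median GC content of all genes tested, 49.5%, up to 62.2% in Ltbp4.

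**Figure D4:**
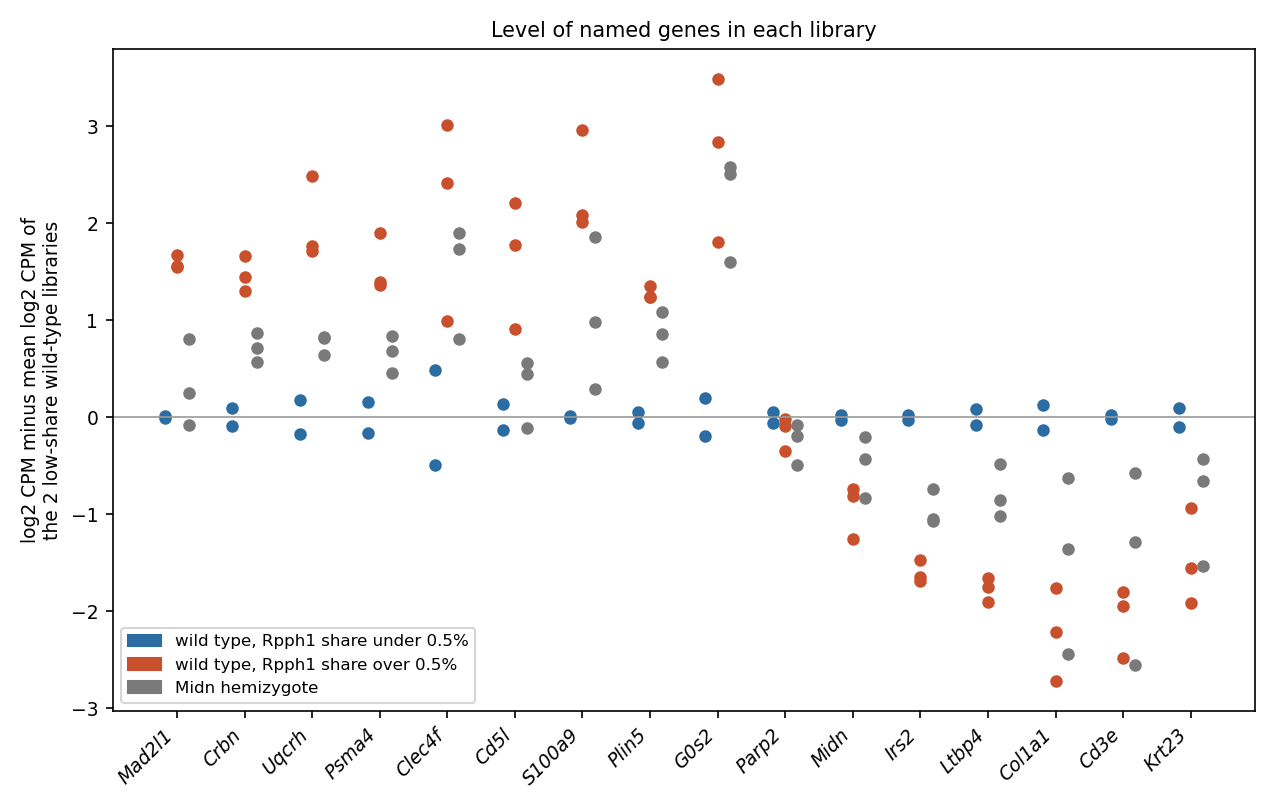
Log2 CPM of 16 genes in each library, minus the mean log2 CPM of the 2 low-share wild-type libraries (y axis), 1 point per library: low-share wild type blue, high-share wild type orange, Midn hemizygote grey. Apart from Parp2, the high-share points of every gene shown lie on 1 side of both low-share points.

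Markers of some liver cell types differed between the sets, and in bulk tissue fewer cells of a type and less RNA per cell cannot be told apart. The tissue label was checked against Alb, the hepatocytes' serum albumin, which stood at 31018 and 27530 CPM with low share and at 29301, 29585 and 25532 CPM with high share (−0.06, SE 0.29; edgeR adjusted p = 0.895). Of 30 hepatocyte identity genes, 4 were higher and 1 lower (13.3% and 3.33%, against 18.8% and 14.4% of all genes tested). Their median of 0.03 was −0.30 by library totals and −0.08 by upper quartile. Tdo2, the enzyme that opens the tryptophan ring, was the member with the smallest p, at 1005 and 839 CPM against 2622, 3248 and 4176 CPM (1.86, SE 0.28; edgeR adjusted p = 0.00655). Haemoglobin (Hbb-bs) was at 0 in every library, pancreatic trypsinogen (Prss2) had at most 1 count and adiponectin (Adipoq) at most 3, the defining markers of blood, pancreas and fat. The haemoglobin value does not show that blood was absent, as counts of close paralogs are uncertain here. Other members of these lists were measured: the blood enzyme gene Bpgm was higher (0.52, SE 0.15), as was Cfd, the adipocytes' complement factor D (2.35, SE 0.48), at 0.576 and 0.371 CPM against 2.11, 3.41 and 1.75 CPM. The adipose and muscle list summed to 529 to 611 CPM with low share and 660 to 1538 CPM with high share. The Alb difference was 0.041 without library 1 and 0.0026 without library 5.

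Kupffer cell markers were higher for 10 of 16 tested members and lower for 0, with a median of 0.75. Their summed level was 1013 to 1085 CPM with low share and 1549 to 2701 CPM with high share. Clec4f, the lectin that defines Kupffer cells in mice, stood at 52.1 and 26.4 CPM with low share and at 73.6, 197.6 and 298.9 CPM with high share. All high-share values lay above, although library 2 was much nearer to the low-share libraries (2.28, SE 0.64; edgeR adjusted p = 0.0391). Cd5l, a protein that macrophages secrete, stood at 241.0 and 200.5 CPM against 414.0, 751.5 and 1013 CPM (1.72, SE 0.37; edgeR adjusted p = 0.0141), and Adgre1, the F4/80 antigen, at 62.6 and 58.9 against 85.7, 94.6 and 117.9 CPM. C1qa, a chain of complement C1q, and the iron exporter Slc40a1 were higher by 0.60 (SE 0.14) and 0.79 (SE 0.16). After correction the list's median was 0.67, with 5 higher and 0 lower, and Clec4f differed by 2.34 (limma adjusted p = 0.0457). Without library 1 or 3 no marker was called, without library 4, 6 were higher, and without library 5, 3 were; Clec4f was not called in either.

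Of 18 markers of macrophages that gather in fatty liver, 3 were higher (16.7%, against 18.8% of all genes tested) and 2 lower (11.1%, against 14.4%). Their median of 0.31 was −0.02 by library totals. Trem2, which defines lipid-associated macrophages, stood at 19.5 and 18.9 CPM against 27.5, 22.7 and 30.6 CPM and was not called (0.48, SE 0.16; edgeR adjusted p = 0.0561). Lgals3, or galectin-3, was higher (1.21, SE 0.17), as were the chemokine receptor Ccr2 (1.14, SE 0.18) and the elastase Mmp12 (1.14, SE 0.21), while the chemokine receptor Cx3cr1 was lower (−1.18, SE 0.27). Among neutrophil markers 3 of 9 were higher and 0 lower (median 0.92, corrected 0.14), with a summed level of 30.5 to 32.7 CPM against 45.4 to 77.9 CPM. S100a9, a calcium-binding protein of neutrophils, stood at 3.23 and 3.19 CPM with low share and at 13.6, 13.0 and 25.0 CPM with high share (2.42, SE 0.33; edgeR adjusted p = 0.00655), and its partner S100a8 differed by 2.37 (SE 0.44). Without libraries 1, 3 and 4, 1, 0 and 2 neutrophil markers were higher.

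Of 21 T and NK cell markers, 5 were called lower and 1 higher, and the median was −1.41, or −1.09 corrected with 6 lower. Their summed level was 47.8 to 57.9 CPM with low share and 19.5 to 41.8 CPM with high share. Cd3e, a chain of the T cell receptor complex, stood at 3.32 and 3.42 CPM against 0.874, 0.605 and 0.963 CPM, with 75 and 92 counts against 17, 11 and 16 (−2.04, SE 0.33; edgeR adjusted p = 0.00672). Ccl5, a chemokine of cytotoxic cells, stood at 11.2 and 6.64 CPM against 3.24, 2.31 and 2.29 CPM (−1.77, SE 0.30). Without library 1, 2 T and NK cell markers were lower, without library 2, 12, and without library 5, 2. Of 9 B and plasma cell markers 2 were lower and 0 higher. Cd79a, which defines B cells, was not called, at 1.24 and 1.11 CPM against 0.823, 0.385 and 0.421 CPM (edgeR adjusted p = 0.113). Leaving out library 1 left 0 B cell markers lower, and library 4 or 5 left 1.

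Stellate cell and fibroblast markers gave 11 of 24 lower and 3 higher, with a median of −0.80 and a summed level of 2892 to 3264 CPM with low share and 2085 to 2436 CPM with high share. Col1a1, a chain of the main fibrillar collagen of scar tissue, stood at 290.4 and 346.3 CPM with low share and at 68.4, 93.4 and 48.2 CPM with high share (−2.18, SE 0.26; edgeR adjusted p = 0.00655). Col6a1 (−1.68, SE 0.19), Col6a2 (−1.95, SE 0.22) and the growth factor receptor Pdgfrb (−1.73, SE 0.22) were lower as well. These genes are long and GC-rich: Col1a1 has 5930 bases and 58.89% GC, and its corrected difference was −1.61 (limma adjusted p = 0.0231). The corrected list had 6 lower and 0 higher, and a median of −0.58. Without library 1, 6 markers were lower and 0 higher, and without library 5, 7 and 1.

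Bile duct markers gave 4 of 20 lower and 0 higher, with a median of −1.39 and −1.38 corrected. Their summed level overlapped, at 1096 to 1969 CPM with low share and 759 to 1603 CPM with high share. Krt19, which defines bile duct cells, stood at 6.91 and 15.5 CPM against 5.35, 0.660 and 1.62 CPM and was not called (−2.12, SE 0.77; edgeR adjusted p = 0.0798). Krt23, a keratin of bile duct cells, stood at 10.4 and 11.9 CPM against 5.81, 3.79 and 2.95 CPM (−1.41, SE 0.28; edgeR adjusted p = 0.0108), and Pdgfb, a growth factor for stellate cells, was lower too (−1.39, SE 0.27). Without library 2, 15 of 19 tested were lower, and without library 1, 2 of 20. Of 22 endothelial markers, 7 were lower and 1 higher (median −0.25, corrected 0.01). Pecam1, which defines endothelium, stood at 33.1 and 40.6 CPM against 25.4, 27.0 and 24.7 CPM (−0.52, SE 0.14; edgeR adjusted p = 0.0287), and Eng, a TGF-beta co-receptor, differed by −1.01 (SE 0.18). Stab1, a scavenger receptor of liver sinusoids, was lower by edgeR (−0.68, SE 0.13) and differed by −0.03 corrected (limma adjusted p = 0.867). Without libraries 1 and 5, 2 endothelial markers each were lower.

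**Figure D5:**
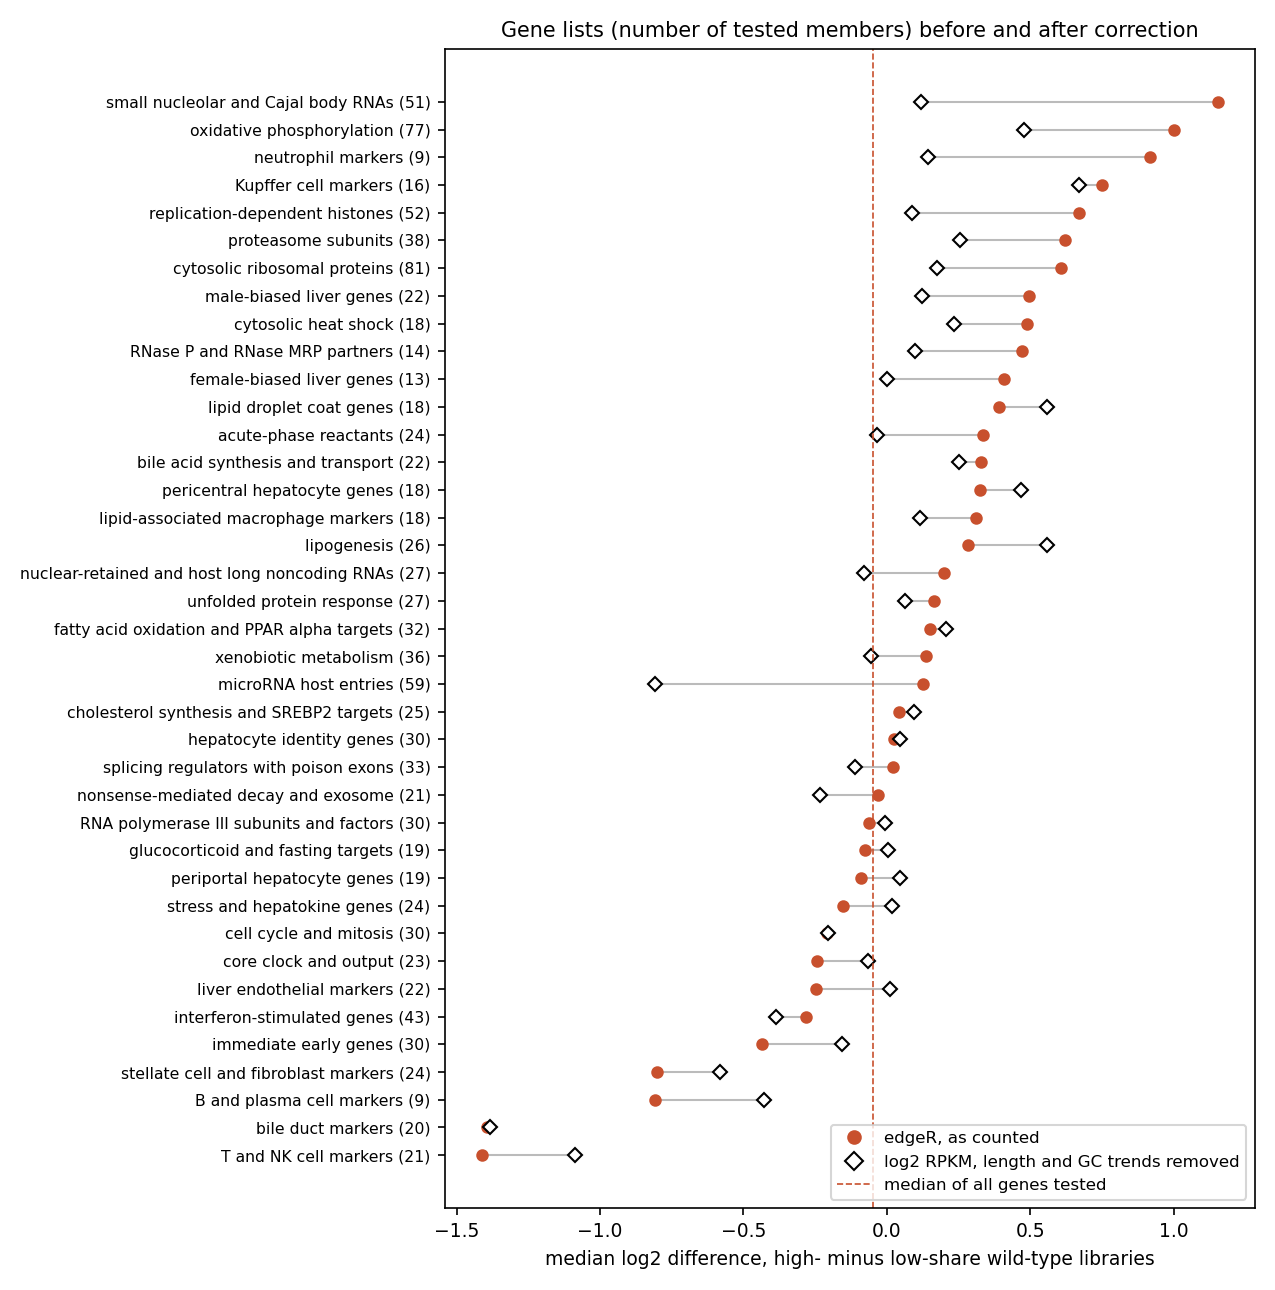
Median log2 difference, high minus low share (x axis), of 39 gene lists (y axis, number of tested members in parentheses) as counted (filled circles) and after removal of exon length and GC trends (open diamonds); the dashed line is the median of all genes tested, −0.05. Small nucleolar RNAs move from 1.15 to 0.12, while Kupffer cell markers (0.75 and 0.67) and bile duct markers (−1.39 and −1.38) stay near their values. Lists of very short genes help set the trend removed from them, so these shifts cannot be compared.

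Genes of fat storage differed with opposite signs for a lipase and its inhibitors. Of 18 genes in the lipid droplet coat list, which also holds the lipase Pnpla2 and its inhibitors, 6 were higher and 1 lower (median 0.39). G0s2, which inhibits the triglyceride lipase Pnpla2, stood at 40.3 and 30.7 CPM with low share and at 123.2, 251.3 and 393.1 CPM with high share (2.85, SE 0.51; edgeR adjusted p = 0.00966). Pnpla2 itself stood at 80.7 and 74.1 CPM against 28.9, 40.3 and 30.2 CPM (−1.22, SE 0.17; edgeR adjusted p = 0.00655), and Hilpda, a further inhibitor of that lipase, was higher (1.22, SE 0.20). Corrected, G0s2 differed by 2.51 (limma adjusted p = 0.0231) and Pnpla2 by −0.82 (limma adjusted p = 0.0231). Without libraries 1, 3 and 5 the number of lipid droplet genes higher was 2, 0 and 4, and G0s2 missed the threshold without library 1.

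In lipogenesis 3 of 26 genes were higher (11.5%, against 18.8% of all genes tested) and 0 lower, with a median of 0.28. By library totals it was −0.05, where the median of all genes tested was −0.38. Corrected, the lipogenesis median was 0.56, with 2 higher and 0 lower. Thrsp, a lipogenic nuclear protein, was higher (2.59, SE 0.72) at 121.2 and 38.2 CPM against 206.9, 492.0 and 742.9 CPM; it was not called without library 1, 3, 4 or 5, and without library 4 or 5 no lipogenic gene was, while without library 2, 10 were higher. Pck1, the gluconeogenic enzyme that fasting raises, stood at 2235 and 2301 CPM with low share and at 1128, 980.3 and 925.3 CPM with high share (−1.17, SE 0.20; edgeR adjusted p = 0.00719). G6pc, the last enzyme of glucose output, went the other way (0.81, SE 0.18). The list of glucocorticoid and fasting targets, which holds Irs2, Pck1 and G6pc, gave 4 of 19 higher and 4 lower. Each is 21.1%, against 18.8% and 14.4% of all genes tested, and the median was −0.08. Of 32 fatty acid oxidation and PPAR alpha genes, 6 were higher (18.75%, against 18.8% of all genes tested) and 1 lower. Their median was 0.15, and −0.18 by library totals. Decr1, an auxiliary enzyme of beta-oxidation, led them (1.22, SE 0.21). Without libraries 1, 3 and 5, 3, 0 and 3 of these were higher. Cholesterol synthesis gave 0 of 25 higher and 1 lower, Srebf2, its main transcription factor (−0.62, SE 0.14).

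Single genes of hepatocyte transport and secretion also parted the sets. Of the bile acid and xenobiotic lists below, 22.7% and 16.7% were called higher and 9.09% and 5.56% lower. Over all genes tested the shares were 18.8% and 14.4%. Slco1b2, a bile acid and drug uptake transporter, stood at 1088 and 671 CPM with low share and at 2517, 4100 and 5801 CPM with high share (2.23, SE 0.42; edgeR adjusted p = 0.00903). Abcg8, part of the sterol exporter into bile, stood at 199.5 and 199.7 CPM against 107.6, 101.9 and 71.3 CPM (−1.09, SE 0.19; edgeR adjusted p = 0.00747). Bile acid genes as a list gave 5 of 22 higher and 2 lower, with a median of 0.33. Acute-phase genes gave 7 of 24 higher and 1 lower, and 2 and 0 corrected: Apcs, or serum amyloid P, stood at 58.4 and 36.5 CPM against 197.9, 187.0 and 264.0 CPM (2.19, SE 0.26; edgeR adjusted p = 0.00655), and Crp differed by 1.64 (SE 0.30). Without libraries 1, 3, 4 and 5, 3, 0, 3 and 3 acute-phase genes were higher, and without libraries 1 and 5, 3 bile acid genes each. Arg1, the last enzyme of the urea cycle, stood at 858.1 and 752.3 CPM against 1943, 1604 and 2199 CPM (1.25, SE 0.23). Por, the electron donor of microsomal P450 enzymes, was lower (−1.17, SE 0.19), in a list of xenobiotic genes with 6 of 36 higher, 2 lower and a median of 0.14 that was −0.18 by library totals; without libraries 1, 4 and 5, 2, 3 and 2 xenobiotic genes were higher, and without library 2, 11 were higher and 6 lower.

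Of 30 immediate early genes, the first to be transcribed after a stimulus, 0 were higher and 5 lower, a share of lower genes (16.7%) near the 14.4% of all genes tested, with a median of −0.44. Corrected, 2 were higher and 2 lower and the median was −0.16. Myc, a growth-promoting transcription factor, stood at 17.8 and 22.4 CPM with low share and at 9.52, 6.60 and 6.56 CPM with high share (−1.41, SE 0.21; edgeR adjusted p = 0.00655). Egr1, a zinc finger factor induced by growth signals, stood at 42.3 and 23.9 CPM against 12.8, 11.5 and 7.40 CPM (−1.64, SE 0.30; edgeR adjusted p = 0.00886). Without libraries 1, 3 and 5, 1, 0 and 2 immediate early genes were lower. Of 23 clock genes 2 were higher and 7 lower, with a median of −0.24, and 1 higher and 1 lower corrected (median −0.06). Nr1d1, the repressor REV-ERB alpha, stood at 69.0 and 61.5 CPM against 16.1, 26.8 and 18.5 CPM (−1.67, SE 0.21; edgeR adjusted p = 0.00655), and Clock, an activator of the loop, was higher (0.94, SE 0.14). The output factor Dbp (−0.58, SE 0.13) and the repressor Cry2 (−0.82, SE 0.15) were lower. Without libraries 1, 3 and 5, 1, 0 and 4 clock genes were lower; the labels give no hour of collection, and its part in these differences was not tested. Interferon-stimulated genes gave 3 of 43 higher and 6 lower with a median of −0.28, and the share of lower genes (14.0%) was near 14.4%. They were led by Oasl2, of the antiviral OAS family (−1.49, SE 0.19), and by Ifi27l2a in the other direction (1.41, SE 0.17). Corrected, 1 was higher and 5 lower, 38 of 43 lay below 0, and the median was −0.39. Leaving out library 1 left 2 interferon-stimulated genes lower, library 2 left 17 and library 5 left 3.

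Splicing and RNA decay factors went both ways. Of 33 splicing regulators, 9 were higher and 4 lower, and their median of 0.02 was −0.31 by library totals and −0.09 by upper quartile. Corrected, 0 were higher and 8 lower. Srrm2, a scaffold of nuclear speckles with 8871 bases of exon, stood at 539.7 and 500.2 CPM against 235.1, 299.0 and 210.6 CPM (−1.07, SE 0.19; edgeR adjusted p = 0.00797), and Srsf5 was lower (−0.71, SE 0.13) and Srsf10 higher (0.65, SE 0.12). In nonsense-mediated decay and the exosome 3 of 21 were higher and 6 lower, and corrected, 1 was higher and 3 lower. Upf1, the helicase of that decay, was lower (−0.91, SE 0.21), and the exosome subunit Exosc8 higher (1.00, SE 0.18). Neither was called corrected: Upf1 differed by −0.39 (limma adjusted p = 0.172) and Exosc8 by 0.20 (limma adjusted p = 0.278). The cytosolic heat shock list, which also holds the mitochondrial co-chaperone Hspe1, gave 6 of 18 higher and 2 lower, and 1 and 1 corrected. Hspe1 stood at 106.7 and 86.3 CPM against 189.0, 205.4 and 261.0 CPM (1.18, SE 0.20; edgeR adjusted p = 0.00679). Its corrected difference was 0.35 (limma adjusted p = 0.134). In the unfolded protein response 3 of 27 were higher (11.1%, against 18.8% of all genes tested) and 0 lower. The median of 0.16 was −0.17 by library totals, and corrected, 0 were higher and 1 lower. Without libraries 1 and 5, 0 and 3 splicing regulators and 1 and 1 decay genes were higher, while 0 and 1 decay genes were lower. Leaving out library 1 left 3 heat shock genes and 1 unfolded protein response gene higher. Without library 2, 10 heat shock genes were higher, and 4 unfolded protein response genes were higher and 3 lower; without library 4, 5 heat shock genes were lower, and 2 unfolded protein response genes were higher and 5 lower.

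The Midn hemizygote libraries, all with a low Rpph1 share, did not as a set sit with the low-share wild type. For 40.8%, 49.7% and 54.1% of the genes called higher, hemizygote libraries 1, 2 and 3 lay nearer to the mean of the high-share wild-type libraries than to that of the low-share ones. For genes called lower the figures were 41.9%, 34.6% and 46.7%, and over all genes tested 48.4%, 46.8% and 52.6%. All 3 lay nearer to the low-share mean in 29.5% of the higher genes, 39.3% of the lower genes and 30.7% of all genes tested, and nearer to the high-share mean in 26.6%, 19.4% and 28.0%. Hemizygote libraries held 6.69%, 7.71% and 6.67% of counts in genes under 1000 bases, above both low-share wild-type libraries. Hemizygote libraries 1 and 3 lay below every high-share library in this measure. Rmrp stood at 1277, 1652 and 1402 CPM, above both low-share libraries (1038 and 1150 CPM) and below every high-share library. As a share of counts Rmrp held 0.111%, 0.175% and 0.119%, against 0.118% and 0.147% with low share. Scarna10 stood at 26.1, 58.8 and 35.6 CPM in them, near the low-share values of 42.1 and 37.1 CPM. G0s2 stood at 210.2, 106.2 and 199.4 CPM, above both low-share libraries. In the hemizygotes the genotype and the library differ together and cannot be told apart.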

How the data were processed

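Liver messenger RNA was sequenced from 8 mice. Per the labels, livers went into RNAlater, RNA was isolated with the Quick-RNA Miniprep kit and DNase I, and libraries were made with KAPA mRNA HyperPrep kits. Per the submitters' processing notes, the tools were bcl2fastq 2.18.0.12, STAR and HTSeq, on mm10. Which annotation, strand setting and counting mode HTSeq used is not stated there. Overlapping genes, antisense genes and close paralogs (Mup, Cyp) are therefore uncertain. Deposited by the authors were raw counts per gene, exon lengths and coordinates for 25078 genes, and RPKM values per gene scaled by a library total that is not explained there. No count was found for 5912 genes, and mitochondrial transcripts were not analysed here.

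The Rpph1 share is its count over the library total, and 0.5% parted the sets. Counts of wild-type pairs differed beyond sampling noise (chi-square per degree of freedom at least 22.9), so each library counted as 1 replicate. Genes other than Rpph1 were kept with filterByExpr (minimum count 10, minimum total 15), which left 14579, then scaled by TMM. The test was edgeR's robust quasi-likelihood F test, 3 libraries against 2, two-sided, with Benjamini-Hochberg adjustment at 0.05. SE is the difference over the root of F. CPM values are scaled over all 8 libraries. Corrected values come from limma on log2 RPKM (pseudocount 0.1) after each library's lowess trends against exon length and GC content were removed; GC is that of the longest GENCODE transcript and was found for 99.1% of tested genes. Fold changes on that scale understate low genes. The members and the 44 gene lists were chosen with earlier results of these data known. Genes named are Rpph1, Parp2, Midn, the 10 per direction with the smallest p (predicted genes and pseudogenes passed over), of each list up to 4 called members by smallest p, the most abundant member of each structural RNA list, and defining cell markers. Some genes that this rule names are not reported here. Promoters come from RefSeq (GRCm38.p6). Alternatives were RLE, library-size and upper-quartile scaling, DESeq2, limma-voom, other filters and thresholds, no robust estimation, RPKM values, all 8 libraries, the share as a covariate, and each library left out. The procedure was tested on simulated data. Tests ran in edgeR 4.0.16, DESeq2 1.42.0 and limma 3.58.1 under R 4.3.3, and plots in matplotlib 3.10.9 under Python 3.11.15.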

Additional observations from a re-analysis of the deposited data

How the results depend on the processing

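The count of 4848 called genes stayed within 1.5 times that number, between 3738 and 6459, with RLE, library-size or upper-quartile scaling, DESeq2, limma-voom, no filter, a minimum mean of 1 CPM, non-robust estimation, RPKM values, all 8 libraries, the share as a covariate, no Rn45s or Rpph1 before scaling, the exon length trend removed, protein-coding genes only, a 1.5-fold minimum and a threshold of 0.10. It was 2982 with the GC trend removed and 2199 with the exon length and GC trends removed, both chosen after seeing the data, and 1680 at a threshold of 0.01. Leaving out 1 wild-type library gave 0 (without library 3) to 6003 genes (without library 2), with 1754 without library 1 and 2326 without library 5; where 1 low-share library was left, it was assumed to vary like the others. No gene was called in all 5 of these fits, and 1525 were called in the 4 that keep library 3. Among 157 named genes, the difference of Oip5os1 turned to −0.13 with the exon length and GC trends removed, and that of Alb ran from −0.14 to 0.041 with 1 library left out and was above 0 without library 1 or 5 (0.0026); the cause was not tested. With those trends removed 60 named genes missed the threshold, and without library 3 this held for 149. The smallest ratio of a high to a low Rpph1 share, 2.03, stayed above 2 with Rn45s left out, TMM scaling or RPKM. Each of these rescales the Rpph1 counts that chose the sets, so the ratio is a description and cannot check the split. The fit with the share as a covariate uses those chosen values too and is no separate check. No paired analysis was possible because the labels give no replicate numbers that tie libraries of the sets to each other. With 3 against 2 libraries, modest differences could be missed at this depth, and not only in genes with few counts. On simulated counts, 3 of 50 genes changed 1.5-fold were called, and 27 of 50 changed 2-fold. These genes were drawn from all those tested.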

Other observations

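Gene families chosen after their values were seen stand beside the lists. Of 355 zinc finger genes with names in Zfp, 123 were called higher and 47 lower in the high-share libraries (median log2 difference 0.19, median exon length 3716 bases, median GC content 44.3%). Of 34 collagen genes, 0 were higher and 13 lower (median −0.97, 6453 bases, 55.4% GC). Of 78 mitochondrial ribosomal protein genes, 35 were higher and 1 lower (median 0.45).

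Of 22 genes that are higher in male liver 4 were called higher (18.2%, against 18.8% of all genes tested) and 1 lower. Ugt2b1, a glucuronosyltransferase, was higher, at 319.6 and 201.1 CPM in the low-share libraries and 754.5, 984.0 and 1254 CPM in the high-share libraries (log2 difference 1.94, SE 0.31; edgeR adjusted p = 0.00658). Mup20, a major urinary protein with near-identical relatives and therefore uncertain, stood at 4173 and 2706 CPM against 8997, 11737 and 30079 CPM. Of 13 female-biased genes 4 were higher and 1 lower, and Cyp17a1, a steroid-producing P450, led them (1.59, SE 0.21). Without library 2, 9 male-biased genes were higher and 4 lower, and without library 1 or 5, 1 female-biased gene was higher. Pericentral genes gave 4 of 18 higher (22.2%) and 2 lower (11.1%), with a median of 0.32 that was −0.01 by library totals. Periportal genes gave 4 of 19 higher (21.1%) and 2 lower (10.5%), with a median of −0.09. Over all genes tested, 18.8% were higher and 14.4% lower. Cyp7a1, the rate-limiting enzyme of bile acid synthesis, stood at 455.7 and 420.0 CPM against 673.8, 887.7 and 948.6 CPM (0.93, SE 0.21; edgeR adjusted p = 0.0160). Without library 1, 1 pericentral and 2 periportal genes were higher, without library 5, 1 and 3, and without library 3 none.

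Hamp2, a relative of the iron hormone hepcidin, stood at 2.57 and 2.71 CPM with low share and 6.94, 7.98 and 17.1 CPM with high share (2.01, SE 0.43; edgeR adjusted p = 0.0133). Cela1, an elastase also made outside the pancreas, was the 1 tested member of the exocrine pancreas list and was higher (1.07, SE 0.19), while 2 members of that list had no count in any library.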
